A study of Homo sapiens with 6 samples.

Results

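The genes described are 10 components of the NF-kB system, chosen by name from the deposited count table of 58870 genes: the subunit genes NFKB1, NFKB2, RELA, RELB and REL, the inhibitor genes NFKBIA, NFKBIE and NFKBIZ, and the feedback genes TNFAIP3 and BIRC3. All 10 had a row in the table and all 10 entered the test. RNA was sequenced from the human melanoma line WM164, an established line, in 3 libraries labelled GFP, from cells overexpressing green fluorescent protein as the control, and 3 libraries labelled T-MGM, from cells overexpressing a tethered dimer of MAFG and MITF. Per the study's methods, the melanoma isoform of MITF was joined through a flexible linker to MAFG, both constructs were delivered by lentivirus under the EF1α promoter, and transduced cells were selected with blasticidin, so the control cells carried a vector too. The labels name no added stimulus of NF-kB. No source used here states that the 3 libraries of a group came from separate cultures, so p-values measure only the spread between these libraries, which may be technical. In bulk RNA, fewer cells expressing a gene and less RNA per cell cannot be told apart.

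Total counts were 35057239 to 38738065 in the GFP libraries and 44577774 to 59250663 in the libraries labelled T-MGM. Transcripts of the construct's own genes hardly marked the groups: normalized counts of MAFG were 2535, 2397 and 2442 in GFP against 2396, 2351 and 2327 in T-MGM (log2 fold change -0.06, adjusted p 0.236 with DESeq2), and MITF was 1.06-fold higher (0.08, adjusted p of 4.8e-07). The groups are therefore called by their labels. The paper itself reports expression of the dimer in WM164 cells, with higher AXL by qRT-PCR. All 7 melanoma markers listed were measured, with a summed level of 1144 to 1168 TPM (a level scaled for transcript length and depth) in GFP and 972 to 1009 TPM in T-MGM. Of the 7, MLANA, TYR, DCT and S100B fell with DESeq2 (log2 fold changes of -0.68, -0.35, -2.49 and -0.21), while MITF, SOX10 and the pigment gene PMEL rose slightly (0.08, 0.11 and 0.05). In TPM the sign for MITF, SOX10 and PMEL was the opposite. Their GFP means were 138, 416 and 252 TPM against T-MGM means of 133, 403 and 237 TPM. Of 12 markers of fibroblasts, leukocytes, keratinocytes and endothelium, 4 had at most 3 counts in every library (PTPRC and CD3E among them), and the list summed to 15.7 to 16.6 TPM in GFP and 16.6 to 21.1 TPM in T-MGM, nearly all of it LUM and CD68. COL1A1, LUM and CD68 rose and LYZ fell (log2 fold changes of 1.23, 0.77, 0.45 and -1.32), and their part in the results below was not tested. In TPM the groups overlapped for COL1A1, LUM and CD68.

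NF-kB is a family of dimeric transcription factors built from 5 subunits. RELA, RELB and REL carry a transactivation domain, whereas NFKB1 and NFKB2 encode precursors that are processed to the DNA-binding subunits p50 and p52. In resting cells IkB proteins hold the dimers in the cytoplasm, and the IKK complex releases them by marking IkB for degradation. Among the genes that NF-kB then switches on are its own inhibitors and subunits, which makes NFKBIA, TNFAIP3 and BIRC3 commonly used readouts of its activity. In melanoma the pathway is known for its link to inflammatory signalling, survival and the dedifferentiated cell state. It works largely through protein location and stability, which RNA counts do not record.

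Promoter sequence was examined next. RefSeq promoter windows (GRCh38.p14) were matched for 8 of the 10 genes, in 13 windows, and the 250 bases before each start were searched on both strands for the kappaB consensus decamer, the NF-kB binding motif. It was present in 9 of the 13 windows and in 7 of the 8 genes, against 9.96% of all 35116 windows; RELA was the exception. One window is shown for each of the 7 genes with the decamer, since their counts are given further on, each read 5′ to 3′ along the gene with the motif in capitals. The windows of NFKB1, NFKB2, REL, NFKBIZ and TNFAIP3 lie partly or wholly in annotated exons, and those of NFKBIA and BIRC3 do not. Exons of any gene on either strand were counted. The windows shown for NFKB1, NFKBIZ, NFKBIA and BIRC3 lie outside the annotated spans of those genes, and that of TNFAIP3 lies partly outside. A match is a description of the letters and does not show binding in WM164.
NFKBIA, chr14:35404812-35404839, minus strand: gactggcttGGAAATTCCCcgagcctga
TNFAIP3, chr6:137867172-137867222, plus strand: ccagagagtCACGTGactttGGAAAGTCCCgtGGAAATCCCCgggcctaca
BIRC3, chr11:102317276-102317303, plus strand: ttgggtcatGGAAATCCCCgagtgggtt
NFKB1, chr4:102501301-102501328, plus strand: gacgtcagtGGGAATTTCCagccaggaa
NFKB2, chr10:102394462-102394490, plus strand: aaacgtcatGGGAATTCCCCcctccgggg
REL, chr2:60881518-60881546, plus strand: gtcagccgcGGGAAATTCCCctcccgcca
NFKBIZ, chr3:101827758-101827785, plus strand: ttttggtctGGGAATTTCCagtgtgcag

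In TNFAIP3 the first capitals mark CACGTG, the E-box that MITF can bind, which lies 78 to 73 bases before the start and is followed by a pair of kappaB decamers that end 46 bases before it. CACGTG was found in 6.34% of all windows and in no other of these genes. A second letter pattern bound by MITF, TCATGTG, occurred in 2.52% of all windows and among these genes in RELA alone, where it reads CACATGA along the gene (chr11:65663974-65663998, minus strand, in an annotated exon): tccaattccCACATGAtttcctaat. The exon at the RELA match lies outside the annotated span of RELA, because exons of any gene on either strand were counted. TGAGTCA, the core bound by AP-1 and contained in many MAF sites, occurred in 4.20% of all windows and in none of these genes.

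Changes of the 10 genes between the groups were small. By DESeq2, 5 of 10 had an adjusted p at or under 0.05, against a background of 38.4% of the 19135 genes tested, and against 56.3% of genes whose normalized count averaged 100 or more, a level that 9 of the 10 reached. RELA, NFKB1 and NFKBIE rose (the background for higher is 19.2%), and REL and TNFAIP3 fell (19.2% for lower). None exceeded a 2-fold change with DESeq2, where 5 had an unadjusted p under 0.05, or with edgeR, where 5 also passed, while over all genes 4.63% did with DESeq2. The share of all genes passing was 32.7% in edgeR, 36.4% with the replicate number as a block, 37.6% after correction for GC content and length and 40.3% in either filtered fit of TPM values, and of the 10 genes 5, 4, 3 and 3 passed in these. BIRC3 was below the TPM filter and was not tested in the filtered TPM fits. The 3 genes passing there were REL, TNFAIP3 and NFKBIA. The 95% limits of 9 genes lay wholly within 2-fold, BIRC3 being the exception. The median log2 fold change of the 10 was -0.0055, beside -0.0027 over all tested genes. In 6 of the 10 the normalized counts of the GFP and T-MGM libraries were free of overlap, against a background of 46.8%.

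**Figure D1:**
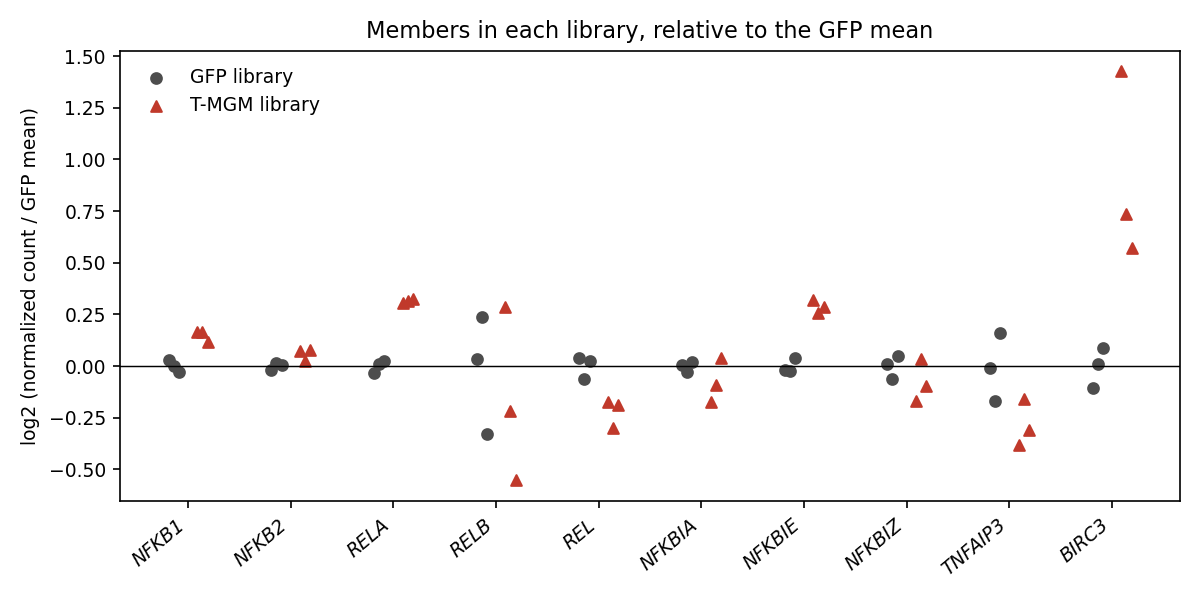
Normalized count of each gene in each library as log2 of its ratio to the GFP mean; grey circles are the 3 GFP libraries and red triangles the 3 libraries labelled T-MGM. The 3 T-MGM libraries sit above all GFP libraries for NFKB1, NFKB2, RELA, NFKBIE and BIRC3 and below them for REL.

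The subunit gene RELA encodes p65, the main transactivating subunit of the canonical pathway. Normalized counts of RELA (ENSG00000173039.19; GRCh38 chromosome 11, 65653599 to 65663090, minus strand) were 3722, 3840 and 3880 in GFP against 4709, 4751 and 4781 in T-MGM. Every T-MGM library lay above every GFP library. The mean went from 3814 ± 82.1 to 4747 ± 36.1 (SD, n = 3), a rise of 24.5% (log2 fold change 0.32, SE 0.03, adjusted p 3.69e-26 with DESeq2). Neighbouring genes moved by nearly as much: the 188 other expressed genes within 5 Mb of RELA had a median log2 fold change of 0.29. RELA is also GC-rich (62.0%, in the highest decile), and that decile had a median of 0.16. After correction for GC content and length RELA was still higher, by 0.18 (adjusted p 2.2e-08 with DESeq2), while its neighbours' median was 0.20. What these share with the change in RELA was not tested.

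NFKB1, the source of p50, rose by less. Its normalized counts (ENSG00000109320.12; chromosome 4, 102501330 to 102617302, plus strand) were 2862, 2810 and 2746 in GFP against 3140, 3141 and 3043 in T-MGM, with no overlap. The means of 2806 ± 58.4 and 3108 ± 56.1 (SD, n = 3) differed by 10.7% (log2 fold change 0.15, SE 0.03, adjusted p 0.000114 with DESeq2). Here the 22 neighbours within 5 Mb had a median of -0.04, and the corrected change was 0.17 (adjusted p of 9.9e-06 with DESeq2). The correction thus changed the value for NFKB1 less than that for RELA. In TPM the groups overlapped for NFKB1, at 15.51, 15.45 and 14.97 TPM in GFP against 15.93, 15.87 and 14.70 TPM in T-MGM.

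REL encodes c-Rel, best known from lymphocytes. Its normalized counts (ENSG00000162924.14; chromosome 2, 60881491 to 60931612, plus strand) were 1131, 1052 and 1117 in GFP against 975, 894 and 964 in T-MGM, again without overlap. REL fell by 14.0%, from 1100 ± 41.9 to 944 ± 44.1 (SD, n = 3; log2 fold change -0.22, SE 0.06, adjusted p 0.00137 with DESeq2). REL transcripts are poor in GC (38.9%, in the lowest decile, whose median log2 fold change was -0.16), and after correction the difference was -0.05 (adjusted p 0.583 with DESeq2), so the call was lost. A gene on the same strand, AC010733.2, overlaps REL and had 218 to 331 counts per library. As a ratio of normalized counts, RELA over REL was 3.29, 3.65 and 3.47 in GFP against 4.83, 5.32 and 4.96 in T-MGM. That ratio is not corrected for GC content. After the correction the log2 fold changes were 0.18 for RELA and -0.05 for REL.

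NFKB2 and RELB form the p52 and RelB dimer of the noncanonical pathway, and neither passed. NFKB2 (ENSG00000077150.19; chromosome 10, 102394110 to 102402524, plus strand) had 1622, 1661 and 1647 normalized counts in GFP against 1730, 1670 and 1735 in T-MGM. These did not overlap, but the difference was 0.06 on the log2 scale, with 95% limits of -0.03 to 0.15 (adjusted p 0.339 with DESeq2), and it turned to -0.08 after the GC correction. RELB (ENSG00000104856.14; chromosome 19, 45001461 to 45038192, plus strand) was much lower, at 149.9, 172 and 117 normalized counts in GFP against 178, 126 and 99.6 in T-MGM. Its groups overlapped fully, with limits of -0.53 to 0.28 and an adjusted p of 0.702 by DESeq2, and its sign turned when GFP replicate 2 or T-MGM replicate 3 was left out (0.01 and 0.06).

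**Figure D2:**
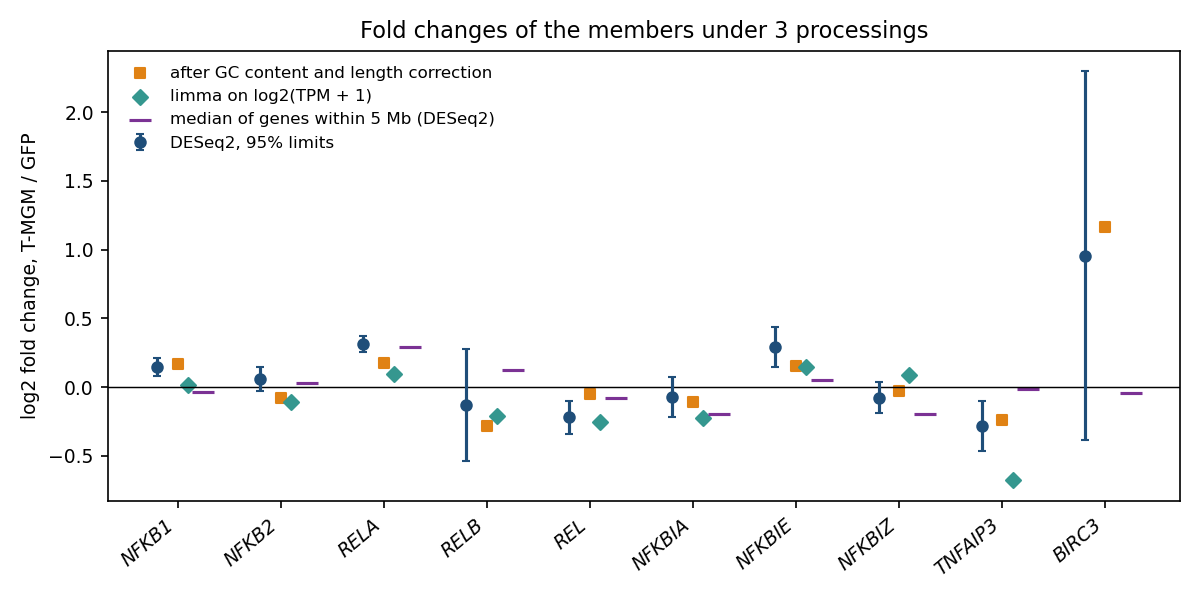
Log2 fold change of T-MGM over GFP for each gene by DESeq2 (blue, with 95% limits), after GC content and length correction (orange) and from TPM values by limma (green), with the median of the expressed genes within 5 Mb (purple bar). RELA (0.32) sits at the level of its neighbours (0.29), REL moves to -0.05 after correction, and TNFAIP3 lies lowest in TPM; BIRC3 was below the TPM filter and has no green point.

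The inhibitors did not move together. NFKBIA encodes IkBα, the inhibitor that NF-kB resupplies first after activation. Its normalized counts (ENSG00000100906.10; chromosome 14, 35401079 to 35404749, minus strand) were 763, 746 and 771 in GFP against 673, 712 and 781 in T-MGM, so the highest library of all was labelled T-MGM. The difference was -0.07 on the log2 scale with 95% limits of -0.22 to 0.07 (adjusted p 0.518 with DESeq2). These limits hold for the DESeq2 fit only, where they do not reach a change as large as that of RELA. In TPM NFKBIA was lower without overlap, at 14.31, 13.75 and 12.30 TPM in GFP against 10.66, 11.51 and 11.92 TPM in T-MGM. There limma on log2(TPM + 1) gave -0.22 (SE 0.07, adjusted p of 0.04).

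NFKBIE encodes IkBε, which acts with a delay and restrains RELA and REL dimers. It had 585, 583 and 609 normalized counts in GFP against 740, 708 and 722 in T-MGM (ENSG00000146232.16; chromosome 6, 44258166 to 44265788, minus strand). In normalized counts the groups were well apart, and NFKBIE rose by 22.2%, from 592 ± 14.5 to 724 ± 15.8 (SD, n = 3; log2 fold change 0.29, SE 0.07, adjusted p 0.000394 with DESeq2). In TPM they overlapped, at 6.90, 5.61 and 6.58 TPM in GFP against 7.11, 8.19 and 6.16 TPM in T-MGM. NFKBIE transcripts are GC-rich (60.7%), and the corrected difference of 0.15 missed the threshold (adjusted p 0.0957 with DESeq2). The 60 neighbours within 5 Mb had a median of 0.05. The ratio of NFKBIE to NFKBIA normalized counts was 0.767, 0.781 and 0.790 in GFP against 1.10, 0.995 and 0.924 in T-MGM.

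NFKBIZ encodes IkBζ, a nuclear protein that helps NF-kB act on a subset of its targets. Its normalized counts (ENSG00000144802.11; chromosome 3, 101827991 to 101861022, plus strand) were 1286, 1225 and 1324 in GFP against 1137, 1306 and 1197 in T-MGM, which overlap. The log2 difference was -0.08, with 95% limits of -0.19 to 0.04 (adjusted p 0.350 with DESeq2). NXPE3, on the same strand, overlaps NFKBIZ and fell by 0.31 on the log2 scale (adjusted p 0.00209 with DESeq2), so reads from the shared stretch are uncertain in origin.

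Other genes of the IkB kind were described from a list of 3, of which BCL3 rose and NFKBIB fell. NFKBIB, encoding IkBβ, had 1161, 1185 and 1181 normalized counts in GFP against 933, 925 and 885 in T-MGM. The groups were far apart, with a log2 difference of -0.36 (SE 0.06, adjusted p 2.82e-09 with DESeq2). BCL3, a nuclear partner of p50 and p52, had 380, 305 and 356 against 510, 487 and 526 (log2 fold change 0.55, SE 0.10, adjusted p 2.2e-07 with DESeq2). NFKBID did not pass (0.07, adjusted p of 0.833 with DESeq2).

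TNFAIP3 encodes A20, a ubiquitin-editing enzyme that shuts the signal off upstream of IKK. Its normalized counts (ENSG00000118503.15; chromosome 6, 137867214 to 137883314, plus strand) were 610, 546 and 686 in GFP against 472, 549 and 496 in T-MGM. GFP replicate 2 lay just under T-MGM replicate 2, so the groups overlapped at one point. TNFAIP3 fell by 17.7%, from 614 ± 70.5 to 506 ± 39.7 (SD, n = 3; log2 fold change -0.28, SE 0.09, adjusted p 0.00828 with DESeq2). The call was lost without GFP replicate 3 (-0.19, adjusted p 0.146 with DESeq2) and without T-MGM replicate 1 (-0.23, adjusted p of 0.0747). In TPM the fall was larger: 7.18, 6.02 and 6.50 TPM in GFP against 3.19, 3.92 and 4.10 TPM in T-MGM, without overlap. The T-MGM mean was thus 82.3% of the GFP mean in normalized counts and 56.9% in TPM. The antisense gene AL357060.1 shares part of the locus and had 23 to 51 counts per library, and without certain strand information reads from the shared stretch are uncertain in origin.

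BIRC3 encodes cIAP2, a ubiquitin ligase induced by NF-kB that keeps cells alive under TNF. It was barely transcribed, with raw counts of 5, 6 and 6 in GFP against 19, 11 and 13 in T-MGM (ENSG00000023445.14; chromosome 11, 102317484 to 102339403, plus strand). As normalized counts these were 6.0, 6.50 and 6.85 against 17.3, 10.7 and 9.59, which did not overlap. The log2 fold change of 0.96 had an SE of 0.68, 95% limits of -0.39 to 2.30 and a adjusted p 0.298 with DESeq2, so at this depth the limits run from a fall to a rise of over 2-fold. Its paralog BIRC2, encoding cIAP1, was at 1770 to 1894 normalized counts in GFP and 1756 to 1935 in T-MGM (adjusted p of 0.729 with DESeq2).

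Levels per length were compared in the deposited TPM values. In GFP the order was RELA (60.7 ± 1.40 TPM), NFKB2 (24.4 ± 0.385), NFKB1 (15.3 ± 0.296), NFKBIA (13.5 ± 1.04), NFKBIZ (10.96 ± 0.670), TNFAIP3 (6.57 ± 0.583), NFKBIE (6.36 ± 0.672), REL (3.01 ± 0.085), RELB (1.63 ± 0.513) and BIRC3 (0.02 in each library). TNFAIP3 and NFKBIE overlapped and the other neighbours in the order did not. In T-MGM the means were 64.9 ± 2.77 TPM for RELA, 22.6 ± 1.77 for NFKB2, 15.5 ± 0.693 for NFKB1, 11.8 ± 1.94 for NFKBIZ, 11.4 ± 0.643 for NFKBIA, 7.15 ± 1.02 for NFKBIE, 3.74 ± 0.482 for TNFAIP3, 2.36 ± 0.115 for REL and 1.26 ± 0.339 for RELB (SD, n = 3). There NFKBIZ and NFKBIA overlapped, and TNFAIP3 ranked below NFKBIE without overlap. WM164 thus held RELA, NFKB2 and NFKB1 as its abundant subunit transcripts, with REL and RELB far below.

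**Figure D3:**
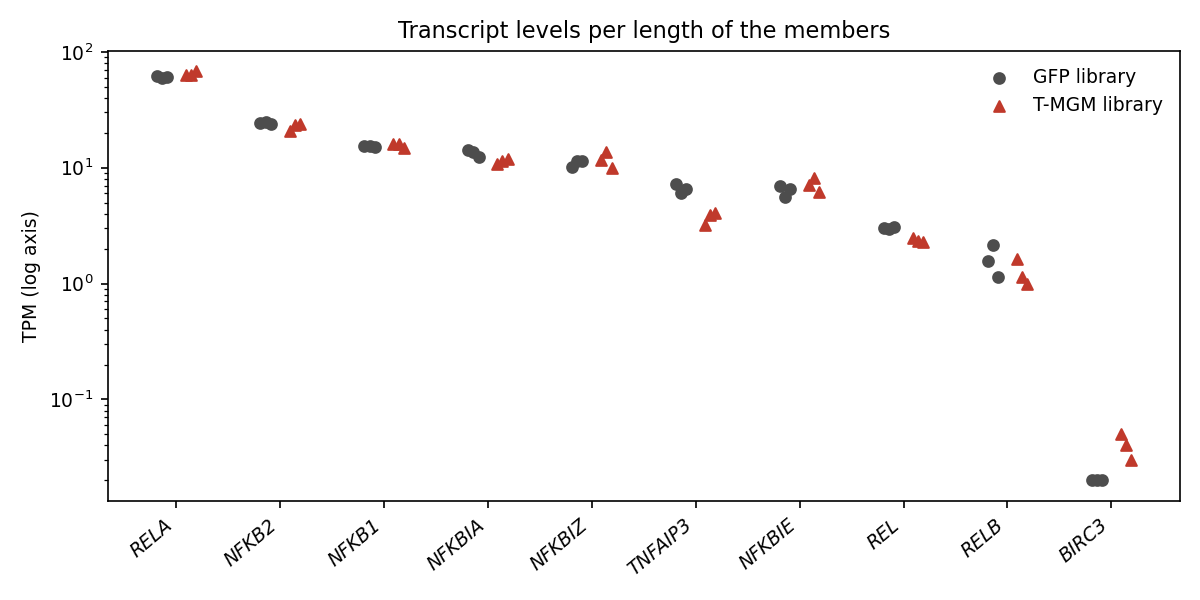
TPM of each gene in each library on a log axis, ordered by the GFP mean; grey circles are GFP and red triangles T-MGM libraries. The levels span from 0.02 TPM for BIRC3 to over 60 TPM for RELA, and the order of the subunit genes is the same in both groups.

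The summed TPM of the 5 subunit genes was 105.1 ± 1.35 in GFP and 106.6 ± 2.92 in T-MGM (SD, n = 3). RELA made up 57.8% ± 0.970 of that sum in GFP and 60.9% ± 1.18 in T-MGM, NFKB2 23.2% and 21.2%, NFKB1 14.6% in both, REL 2.87% and 2.22%, and RELB 1.55% and 1.19%. The shares of RELA (higher in T-MGM), NFKB2 and REL (both lower) did not overlap between the groups, and those of NFKB1 and RELB did. For the inhibitors NFKBIA, NFKBIB and NFKBIE together the sum was 38.7 ± 0.285 TPM in GFP and 31.5 ± 1.50 TPM in T-MGM, or 0.369 and 0.296 TPM per TPM of subunit transcripts. Within that sum NFKBIB took 48.9% in GFP and 41.3% in T-MGM, and NFKBIE 16.4% and 22.6%. TPM values are shares of a fixed sum, and the largest single gene took 13.4% to 13.8% of it in GFP and 15.8% to 16.1% in T-MGM. The median expressed gene had a log2 fold change of -0.13 in TPM, beside -0.01 in DESeq2, and the part of that largest gene in this shift was not tested. With limma on log2(TPM + 1), a scale that understates changes of low genes, RELA (0.09, adjusted p of 0.0991), NFKB1 (0.02, 0.818) and NFKBIE (0.14, 0.343) no longer passed, whereas REL (-0.26), TNFAIP3 (-0.68) and NFKBIA (-0.22, adjusted p of 0.04) were lower. Relative to that median the TPM differences were 0.22 for RELA, 0.15 for NFKB1, 0.27 for NFKBIE, -0.13 for REL and -0.55 for TNFAIP3.

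The rest of the pathway was taken from 7 lists holding 107 genes. Of these 81 were tested and 42 passed. The background was 38.4% of all tested genes and 56.3% of those whose normalized count averaged 100 or more. By direction 25 rose and 17 fell, where all tested genes gave 19.2% and 19.2%. The background at the higher level was not split by direction. Counts by role given below are to be read beside the same shares. Of the 107 genes, 17 had at most 3 counts in every library. The median log2 fold change over the tested genes was 0.02.

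**Figure D4:**
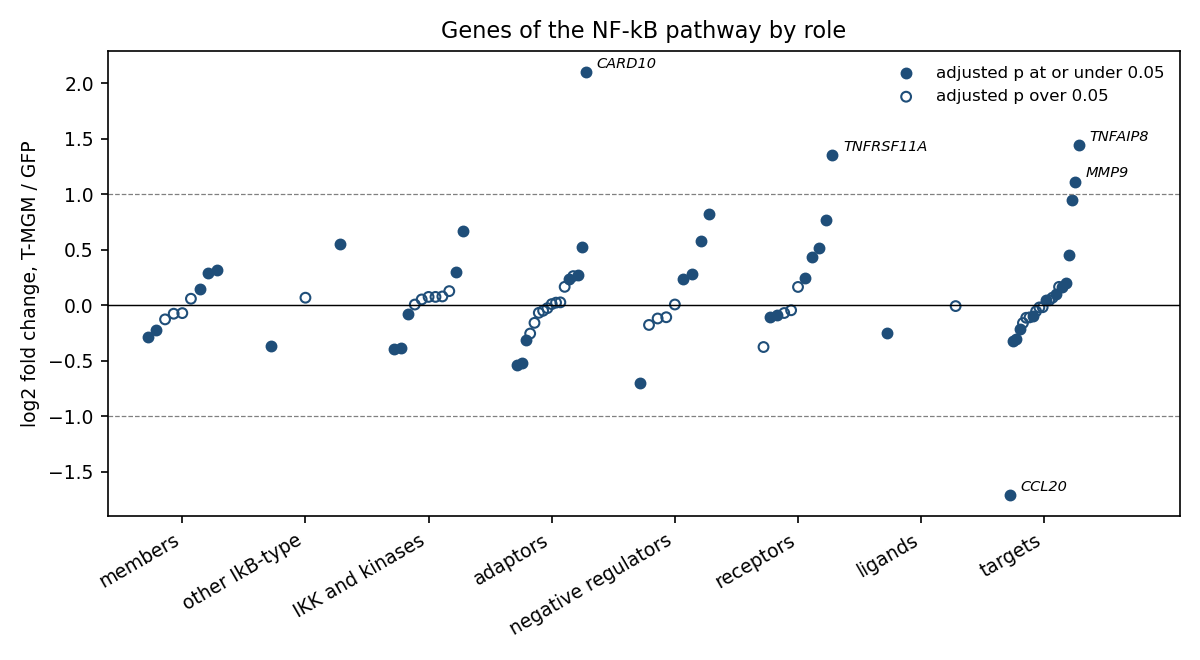
Log2 fold change of T-MGM over GFP by DESeq2 for tested genes whose normalized count averaged 20 or more, grouped by role; filled points passed an adjusted p of 0.05, open points did not, and dashed lines mark 2-fold. The 10 genes described here (BIRC3 falls below the count minimum) stay near 0, while CARD10, TNFRSF11A, TNFAIP8 and MMP9 lie above 2-fold and CCL20 below it.

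Ligands and cytokines on the list were mostly at or near 0 counts. Of 12, 3 were tested and 6 had at most 3 counts in every library, among them TNF with 0 counts throughout, a count that allows up to 0.0506 to 0.0856 CPM (counts scaled to library depth), depending on the library. LIF, a cytokine of the IL-6 family that signals mainly through JAK and STAT proteins, fell from 11854, 12243 and 11975 to 9989, 10224 and 10075 normalized counts (log2 fold change -0.25, adjusted p 3.84e-36 with DESeq2). TNFSF12, the ligand TWEAK, had 0 counts in each GFP library and 7, 7 and 3 in T-MGM (adjusted p 0.0264 with DESeq2), too few for a fold change. TNFSF13B, the ligand BAFF, did not pass (-0.01, SE 0.34, adjusted p of 0.991 with DESeq2).

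Of 17 receptors, 13 were tested, 5 rose and 3 fell. NGFR, a death-receptor relative that marks neural crest-like melanoma cells, went from 4528, 4412 and 4307 to 7359, 7650 and 7569 normalized counts (log2 fold change 0.77, adjusted p 5.47e-180 with DESeq2). TNFRSF12A, the TWEAK receptor, rose by 0.51 and the TNF receptor TNFRSF1A by 0.24. TNFRSF11A, the receptor RANK, was low but free of overlap in normalized counts, at 48.0, 52.0 and 44.5 against 160, 114 and 95.9 (log2 fold change 1.35, SE 0.25, adjusted p 2.89e-07 with DESeq2). In TPM its groups overlapped, at 0.33, 0.42 and 0.17 TPM in GFP against 0.78, 0.34 and 0.40 TPM in T-MGM.

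Among 17 adaptors and ubiquitin enzymes, 4 rose and 3 fell. TRAF6, which relays interleukin-1 and Toll-like receptor signals, rose by 0.53 (SE 0.07), and MALT1, the paracaspase that cleaves A20, fell by 0.53 on the log2 scale (SE 0.05). CARD10, the scaffold that brings MALT1 and BCL10 to receptors outside lymphocytes, had 14.4, 23.8 and 20.6 normalized counts in GFP against 65.7, 89.8 and 97.4 in T-MGM. Those are low levels without overlap, at a log2 difference of 2.10 (SE 0.32, adjusted p 7.65e-10 with DESeq2).

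The kinases hold the IKK complex and its relatives, and of 11 tested 2 rose and 3 fell. CHUK, encoding IKKα, fell from 1209, 1236 and 1155 to 997, 884 and 874 normalized counts (log2 fold change -0.39, adjusted p 7.06e-09 with DESeq2). TBK1 fell by 0.39 and its relative IKBKE rose by 0.30 (adjusted p of 0.0186 with DESeq2). In TPM the groups overlapped for IKBKE, at 2.03, 2.13 and 2.50 TPM in GFP against 2.47, 2.56 and 2.02 TPM in T-MGM. IKBKB and IKBKG, encoding IKKβ and NEMO, did not pass (0.13 and 0.05).

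Of 10 further negative regulators, 9 were tested, 4 rose and 1 fell. TNIP1, which binds A20, rose from 2158, 2066 and 1987 to 3006, 3102 and 3150 normalized counts (log2 fold change 0.58, adjusted p 8.65e-47 with DESeq2). NLRC5, an activator of MHC class I genes that has also been tied to IKK inhibition, rose by 0.82 with DESeq2. In TPM the groups overlapped for NLRC5, with means of 1.27 TPM in GFP and 1.57 TPM in T-MGM. There T-MGM replicate 2 was the lowest of all libraries, at 0.91 TPM, while T-MGM replicates 1 and 3 lay above every GFP library. OTUD7B, the deubiquitinase Cezanne, fell from 8205, 8255 and 8352 to 5222, 5072 and 5033 (log2 fold change -0.70, SE 0.02, adjusted p 5.74e-182 with DESeq2). In normalized counts neither TNIP1 nor OTUD7B overlapped between the groups, where TNFAIP3 did.

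Known target genes split in direction. Of 37, 25 were tested, 8 rose and 5 fell, with a median log2 fold change of 0.04; 7 had at most 3 counts in every library. CCL20, a chemokine, fell from 144, 159 and 140 to 52.0, 36.1 and 47.2 normalized counts (log2 fold change -1.71, SE 0.21, adjusted p 2.08e-14 with DESeq2). CXCL8, another chemokine, moved the opposite way, at 161, 179 and 159 against 369, 308 and 284 (log2 fold change 0.94, SE 0.14, adjusted p 7.83e-11 with DESeq2); it was singled out after its values were seen. TNFAIP8, an inhibitor of apoptosis, went from 103, 153 and 117 to 338, 346 and 328 (1.44). MMP9, a matrix protease, rose by 1.11 from low counts that overlapped, at 14.4, 16.2 and 29.7 against 28.3, 64.4 and 38.4 (adjusted p 0.0222 with DESeq2). CCND1 and EGR1, both also driven by growth signals, rose by 0.45 and 0.17 with DESeq2. In TPM the groups overlapped for EGR1, at 85.9, 88.7 and 85.5 TPM in GFP against 86.7, 88.6 and 88.3 TPM in T-MGM.

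Presence of the kappaB decamer was set beside the fold changes. Over all tested genes with a promoter window, 27.2% of the 1780 with a decamer rose and 23.1% fell, and of the 9714 without one 22.7% rose and 25.6% fell; the medians were 0.02 and -0.01. Of the 7 genes described here that hold it, 3 passed (NFKB1 higher, REL and TNFAIP3 lower), with a median of -0.07. Of 32 target genes with a window 16 held it, 7 of those were tested, and 2 rose and 2 fell. Genes with the decamer thus moved in both directions.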

How the data were processed

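RNA sequencing of 6 WM164 libraries, 3 labelled GFP and 3 labelled T-MGM, was grouped by sample label. The authors trimmed reads with cutadapt 1.8.1, aligned them to GRCh38 with STAR 2.7.7a (versions from the submitters' processing notes), counted uniquely aligned reads with featureCounts at the gene level, and deposited raw counts. They also deposited TPM values from RSEM 1.3.0, rounded to 2 decimals. The annotation release is not given in the sources used here. The labels name a non-stranded library kit and the study's methods a stranded one, so overlapping and antisense genes are uncertain.

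Counts were compared with DESeq2 1.42.0 in R 4.3.3 (group as only term, 2-sided Wald test, Benjamini-Hochberg adjustment over all genes tested); a gene passed at an adjusted p at or under 0.05. "Normalized counts" are counts divided by DESeq2 size factors. All alternatives were computed over the whole table: edgeR 4.0.16 (quasi-likelihood), TMM factors, total counts as size factors, a filter of 10 counts in 3 libraries, no independent filtering, a block for the replicate number, each library left out, a correction for transcript GC content and length, and limma 3.58.1 on log2(TPM + 1) or log2(TPM + 0.1), with genes of at least 0.5 TPM or without that filter. The fits were tested on simulated data. Replicates of a group differed by more than sampling noise. Positions, GC content and neighbours are from GENCODE 44 (GRCh38), which matched 99.4% of gene IDs. Neighbours and GC deciles use genes whose normalized counts average 50 or more. A gene with at most 3 counts in every library, 0.0506 to 0.0856 CPM, was treated as at the floor, which covers counting error only because PCR copies of a molecule are not told apart.

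The members and gene lists were chosen with earlier results of these data known. Named genes are all 10 members and, of each pathway list, genes passing with over 2-fold change and a mean of at least 20, and the 3 with the largest Wald statistics; IKBKB, IKBKG, BIRC2, CXCL8 and the overlapping genes were added after their values were seen.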

Additional observations from a re-analysis of the deposited data

How the results depend on the processing

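The number of genes passing, 7350, stayed within 1.5 times under every alternative run except TPM + 1 without a filter (4295). Of the 10 NF-kB genes 5 passed; 3 did so in TPM + 1, in TPM + 0.1 and after GC and length correction, 1 in TPM + 1 without a filter, and 4 to 5 when a library was left out. BIRC3 was below the TPM filter and was not tested in the filtered TPM fits. No alternative brought any of the 10 genes past 2-fold with an adjusted p at or under 0.05. NFKB2 turned from 0.06 to -0.11 in the 3 TPM fits (-0.110, -0.114 and -0.110) and to -0.079 after GC correction, and NFKBIZ from -0.08 to 0.085, 0.091 and 0.085 in the TPM fits. RELB ranged from -0.38 to 0.057 when a library was left out, being 0.010 without GFP replicate 2. In TPM + 1, RELA (0.09, limma adjusted p of 0.0991), NFKB1 (0.02, 0.818) and NFKBIE (0.14, 0.343) no longer passed and NFKBIA did (-0.22, 0.04); the cause was not tested. TPM also moved the split of calls, with 20.9% of 5514 higher against 50% of 7350, and total-count scaling gave 38.7% of 7561. Same-numbered libraries of the groups did not deviate together (correlations of -0.002, -0.040 and 0.043). Libraries with unlike numbers ranged from -0.089 to 0.087. Such correlations cannot show that same-numbered libraries had no culture or processing day in common, so whether the numbers mark pairs is not known. With the replicate block 6099 genes and 4 of the 10 passed, and TNFAIP3 was at -0.28 (DESeq2 adjusted p of 0.0509). Over all alternatives 132 of 158 values of single genes kept their direction and side of the threshold. Depth limits BIRC3, with under 20 counts in each library, and to a lesser degree RELB.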
